A study of Homo sapiens with 2 samples.

Results

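The genes described here are both partners of the NPM1-ALK fusion and 8 other genes whose products mark anaplastic large cell lymphoma (ALCL): TNFRSF8, MUC1, CD274, IRF4, PRDM1, CLU, TIMP1 and SERPINA1. They were taken by name from a list, and a probe set, the group of short oligonucleotides that reads a transcript on the array, was assigned to a gene when the annotation of the HG-U133 Plus 2.0 array paired it with that gene alone. This gave 26 probe sets for the 10 genes, of 41091 probe sets paired with 1 gene and 19775 genes in all.

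Transcripts were measured on 2 arrays in SU-DHL-1, an established line of ALCL with the t(2;5) rearrangement. The siHLX array held RNA of cells transfected with an siRNA that targets HLX, a homeobox gene of the NKL subclass, and the siCTR array held RNA of cells transfected with the AllStars negative control siRNA. According to the methods, siRNAs were delivered by electroporation, so both groups share that handling and the same cell line, and the profiling served the search for targets of HLX. There was 1 array per siRNA and no replicate, so no test was possible, no p-value is given, and every difference below describes these 2 arrays from 1 line.

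In ALK-positive ALCL the fusion joins the amino-terminal part of nucleophosmin, which makes the protein dimerise, to the kinase part of ALK, a receptor tyrosine kinase that mature lymphoid cells normally do not express. The fusion gene is transcribed from the promoter of NPM1, and the constantly active kinase signals through STAT3, PI3K and RAS-ERK. CD30, encoded by TNFRSF8, and the epithelial membrane antigen, encoded by MUC1, are used to diagnose the disease, while clusterin, PD-L1, MUM1, BLIMP1, TIMP1 and alpha-1-antitrypsin are further products known from these tumours.

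Start-site windows from RefSeq (assembly GRCh38.p14, 250 bases before to 50 bases after a transcript start) are shown for both fusion partners, since the fusion exchanges the ALK promoter for that of NPM1, and for TNFRSF8 and CD274, which hold a match to a motif of factors acting below the kinase. Capitals mark a match, and NPM1 and ALK have none in the windows shown.
NPM1, chr5:171387599-171387898, plus strand: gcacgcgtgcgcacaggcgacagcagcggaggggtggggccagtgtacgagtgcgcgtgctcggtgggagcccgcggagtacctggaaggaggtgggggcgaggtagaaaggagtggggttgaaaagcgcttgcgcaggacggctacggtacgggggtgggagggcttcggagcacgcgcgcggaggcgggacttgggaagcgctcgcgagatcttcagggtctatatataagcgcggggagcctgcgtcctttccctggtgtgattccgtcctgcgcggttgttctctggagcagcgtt
ALK, chr2:29921537-29921836, minus strand: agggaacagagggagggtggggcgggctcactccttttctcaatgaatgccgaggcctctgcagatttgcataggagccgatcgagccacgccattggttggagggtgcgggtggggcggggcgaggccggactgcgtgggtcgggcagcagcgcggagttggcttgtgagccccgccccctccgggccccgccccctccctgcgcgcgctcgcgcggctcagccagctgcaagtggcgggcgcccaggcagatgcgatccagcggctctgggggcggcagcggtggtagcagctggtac
TNFRSF8, chr1:12063053-12063352, plus strand: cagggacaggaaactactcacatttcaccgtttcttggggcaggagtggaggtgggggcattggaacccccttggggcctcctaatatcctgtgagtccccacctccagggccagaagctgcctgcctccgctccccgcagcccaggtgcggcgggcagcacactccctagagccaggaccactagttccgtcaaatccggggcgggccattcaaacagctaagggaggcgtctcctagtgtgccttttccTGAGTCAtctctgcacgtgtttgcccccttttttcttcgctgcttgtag
CD274, chr9:5450292-5450591, plus strand: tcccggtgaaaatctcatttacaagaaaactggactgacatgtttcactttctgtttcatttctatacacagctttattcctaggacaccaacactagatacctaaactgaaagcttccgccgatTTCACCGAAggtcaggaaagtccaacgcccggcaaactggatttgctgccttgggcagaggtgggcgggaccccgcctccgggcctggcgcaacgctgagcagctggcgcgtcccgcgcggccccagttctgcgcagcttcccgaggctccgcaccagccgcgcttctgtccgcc

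The NPM1 window lies at the start 733 bases inside the outermost listed one and has a GC content of 66%, and the ALK window has 71%. Motifs were searched on both strands in the 14 windows of the 9 genes that have one. The STAT motif TTCNNNGAA was found in 1 of the 14, that of CD274, at positions -125 to -117 from the start, against 7.66% of all 35116 windows. The AP1 motif TGANTCA was found in 3 of the 14, at 1 to 7 in TNFRSF8, at 27 to 33 from the outermost start of NPM1 and at -42 to -36 in a window of PRDM1, against 7.71% of all windows. The homeodomain core TAATTA was found in 0 of the 14, against 4.84% of all windows. A match describes letters, not a bound site, and the arrays measured no binding.

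Values are log2 intensities after RMA and quantile normalisation, and each difference is the siHLX value minus the siCTR value. A probe set was taken as above the level threshold when its mean over both arrays reached 4.865, the median of all 54613 probe sets that were not controls. The median was 4.87 on both arrays, the upper quartile was 7.10 on the siHLX array and 7.08 on the siCTR array, and both correlated with r = 0.989 over probe sets, which do not count as replicates. The poly-A spike RNAs, which are added to a sample before labelling, read lower on the siHLX array for 23 of 24 probe sets, by a mean of -0.29 (SD 0.18), whereas the hybridisation controls differed by -0.03 (SD 0.08, 18 probe sets). Scaling both arrays to equal spikes adds 0.29 to every difference. Directions below are therefore relative to most other probe sets, and any direction below 0 for the brightest probe set of a hallmark gene turned under this scaling.

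The siRNA target HLX was read by its single probe set, 214438_at, at 7.70 on the siHLX array and 8.15 on the siCTR array. Its difference of -0.45 corresponds to 0.732 times the siCTR signal, and it was -0.16 when scaled to the spikes. The HLX signal was thus less than 2-fold lower where the hallmark genes were compared.

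All 10 hallmark genes were above the level threshold on their brightest probe set, as were 12135 of all 19775 genes. None of the 10 differed 2-fold on any probe set. ALK, NPM1 and MUC1 are read only by probe sets ending in _s_at or _x_at, suffixes that mark sets able to bind more than 1 transcript, and without such probe sets 7 of the 10 genes were measured above the threshold. Of the 26 probe sets, 0 reached 2-fold in either direction, against 1.40% of all probe sets, and 2 reached 1.5-fold, against 9.51% of all probe sets paired with 1 gene. Of the 21 hallmark probe sets above the threshold 0 reached 2-fold, against 0.875% of all probe sets there. In this set the siHLX value was higher for 11, lower for 9 and equal for 1, against 48.5% higher and 48.9% lower over all probe sets above the threshold, so neither direction prevailed. Their differences ran from -0.33 to 0.35, with a median of 0.01 and a median size of 0.12, against 0.00 and 0.16 over all probe sets above the threshold. With spike scaling the median was 0.30, while that of all probe sets was 0.29.

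**Figure D1:**
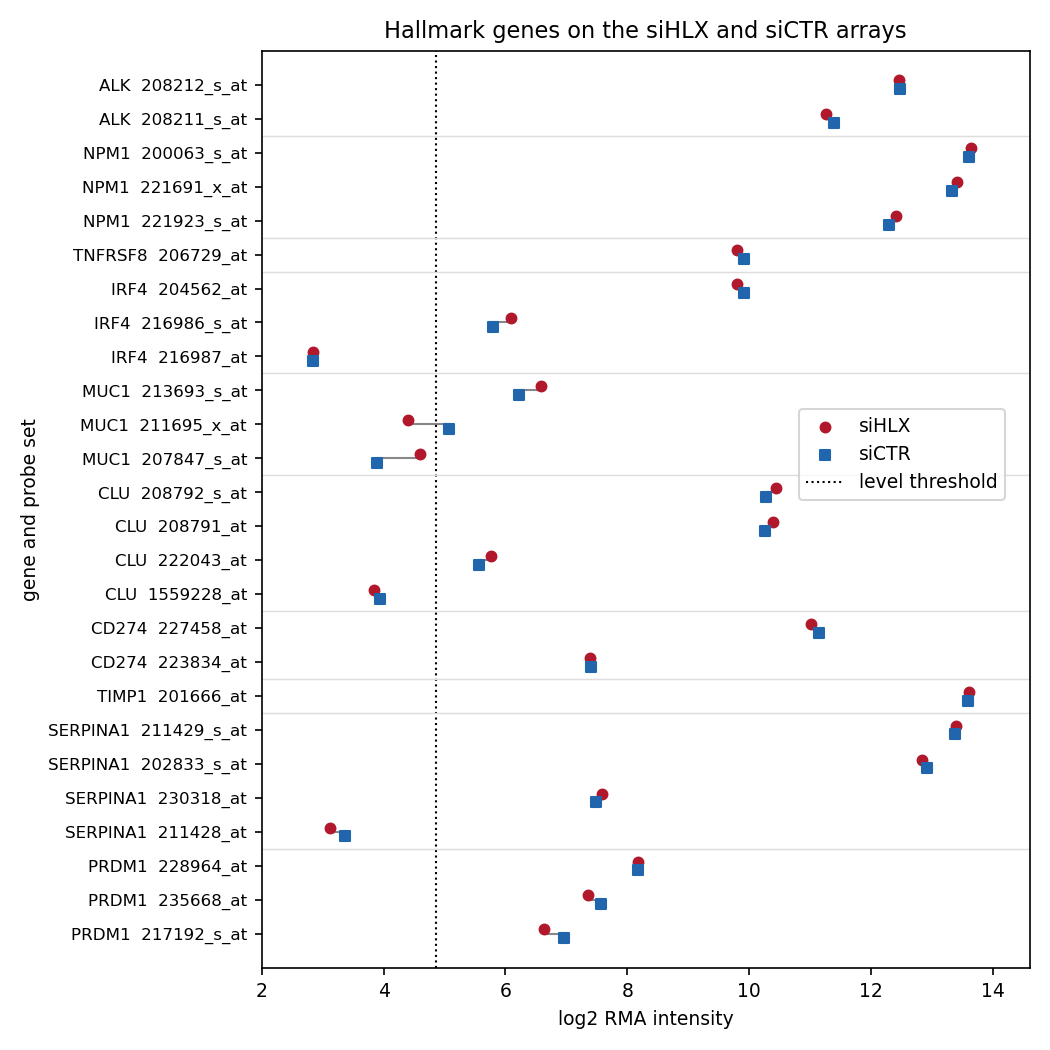
Log2 RMA intensity (x axis) of the 26 hallmark probe sets (y axis), with circles for the siHLX array, squares for the siCTR array, a grey line joining both and a dotted line at the level threshold of 4.865. Both readings lie close together for all bright probe sets, and the widest gaps are those of 2 MUC1 probe sets near the threshold.

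ALK and NPM1, the partners of the fusion, were among the brightest readings of both arrays and differed little between them. ALK read 12.45 on the siHLX array and 12.47 on the siCTR array with 208212_s_at, and 99.3% of all probe sets were dimmer on each. The other ALK probe set, 208211_s_at, read 11.26 on the siHLX array and 11.39 on the siCTR array, brighter than 98.0% and 98.2% of probe sets. The differences were -0.02 and -0.13, with a mean of -0.08 (SD 0.08 between 2 probe sets, a technical spread), and the brighter reading moved to 0.27 with spike scaling.

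To place a difference, it was set beside those of all named probe sets within 0.5 log2 units of the same level. Among the 278 probe sets like 208212_s_at the differences had an SD of 0.082, and 48.2% lay as far down. Among the 800 like 208211_s_at the SD was 0.113, and 13.6% lay as far down. Both ALK differences were thus in the range common at their level. Where the oligonucleotides lie along the gene was not analysed here, so the ALK signal cannot be divided between fusion and full-length transcripts. In RNA of a whole culture, fewer cells with a transcript and less of it per cell cannot be told apart, which holds for every gene below.

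NPM1 encodes a nucleolar chaperone of ribosome assembly, and its probe sets may read the intact allele, the fusion or both. It read 13.63 on the siHLX array and 13.60 on the siCTR array with 200063_s_at. It read 13.41 on the siHLX array and 13.32 on the siCTR array with 221691_x_at. It read 12.40 on the siHLX array and 12.29 on the siCTR array with 221923_s_at. All 3 probe sets lay slightly higher on the siHLX array, each brighter than at least 99.2% of all probe sets.

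The NPM1 differences of 0.03, 0.09 and 0.11 had a mean of 0.08 (SD 0.04 between 3 probe sets). Among like-level probe sets, 32.2%, 6.71% and 9.42% lay as far up. NPM1 has many processed pseudogenes, so these readings are not certain to come from the gene alone.

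Of the genes for surface proteins, TNFRSF8 and CD274 read slightly lower on the siHLX array, a direction that turned with spike scaling, and MUC1 was dim. TNFRSF8 encodes CD30, a TNF receptor family member, and had a single probe set. It read 9.79 on the siHLX array and 9.92 on the siCTR array, with 93.8% and 94.3% of probe sets dimmer. The difference was -0.13, or 0.16 with spike scaling, and 20.1% of 2117 probe sets at that level differed at least as negatively.

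CD274 encodes PD-L1, the ligand of the inhibitory receptor PD-1, and is known as a target of NPM1-ALK through STAT3. Its brighter probe set 227458_at read 11.01 on the siHLX array and 11.15 on the siCTR array, with 97.5% and 97.8% of probe sets dimmer. The other, 223834_at, read 7.38 on the siHLX array and 7.40 on the siCTR array. The differences of -0.14 and -0.02 had the same sign, which turned to 0.15 for the brighter one with spike scaling, and 11.0% and 47.9% of probe sets at these levels differed at least as negatively. The promoter window shown above with the STAT match is that of this gene, but 7.66% of all windows hold such a match, and binding was not measured.

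MUC1 encodes the epithelial membrane antigen, a cell surface mucin. Only 213693_s_at was above the threshold, with 6.58 on the siHLX array and 6.23 on the siCTR array, brighter than 70.4% and 67.2% of probe sets. Its difference of 0.35 was the largest among the hallmark probe sets above the threshold, yet 12.6% of the 4119 like-level probe sets, whose differences had an SD of 0.309, lay as far up. The dimmer probe sets disagreed. 211695_x_at read 4.40 on the siHLX array and 5.08 on the siCTR array, a difference of -0.68, and 207847_s_at read 4.60 on the siHLX array and 3.89 on the siCTR array, a difference of 0.71. These are the 2 hallmark probe sets past 1.5-fold, they lie below the threshold on average, and 7.94% and 6.71% of probe sets of their level lay as far in the same direction. MUC1 therefore has no settled direction here.

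**Figure D2:**
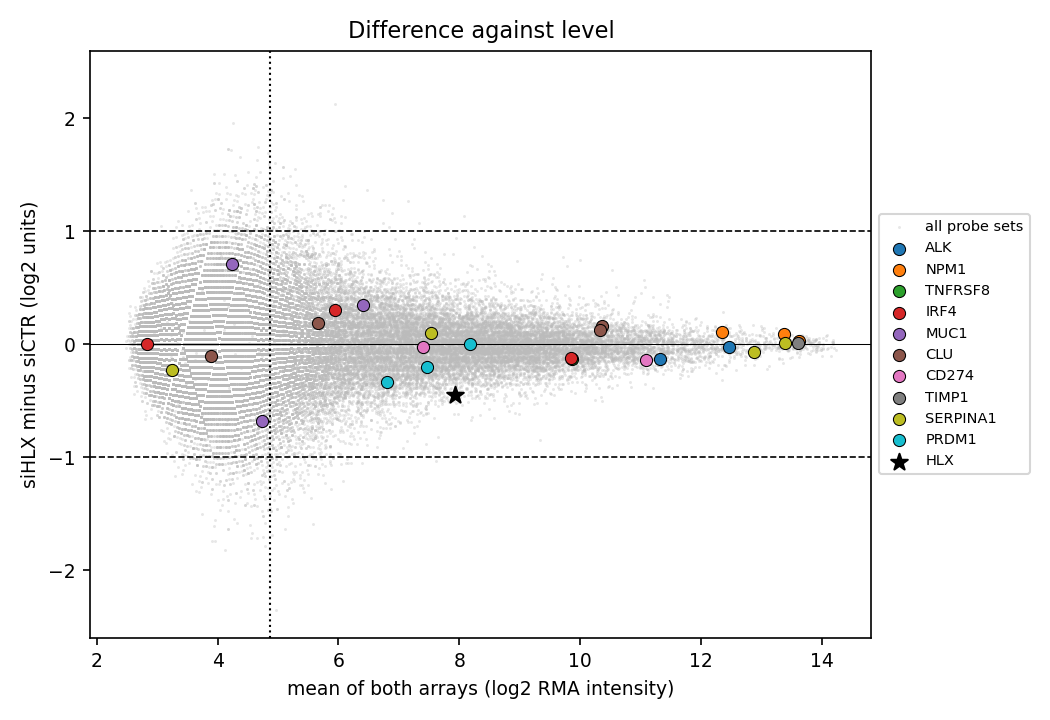
Values on the siHLX array minus those on the siCTR array (y axis, log2 units) against the mean of both arrays (x axis, log2 intensity) for all probe sets in grey, the hallmark probe sets in colour and HLX as a star; dashed lines stand at 2-fold and a dotted one at 4.865. The grey cloud narrows with level, the 26 hallmark points lie inside it between -0.68 and 0.71, and the point of TNFRSF8 is hidden by that of IRF4 at nearly the same place.

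Of the transcription factor genes, IRF4 and PRDM1, the first differed little on its brightest probe set and the second was equal on its brightest one and lower on both others. IRF4 encodes MUM1, a factor of activated lymphocytes and plasma cells. Its probe set 204562_at read 9.79 on the siHLX array and 9.91 on the siCTR array, a difference of -0.12, or 0.17 with spike scaling, and 21.7% of probe sets at that level differed at least as negatively. The dimmer 216986_s_at read 6.09 on the siHLX array and 5.79 on the siCTR array, a difference of 0.30 in the other direction. The third, 216987_at, read 2.84 on both arrays and was dimmer than nearly all other probe sets. The mean over all 3 was 0.06 (SD 0.22), so the sign of IRF4 depends on the probe set.

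PRDM1 encodes BLIMP1, a repressor that drives terminal differentiation of lymphocytes and that IRF4 is known to induce. With 228964_at it read 8.18 on the siHLX array and 8.18 on the siCTR array, brighter than 83.9% of probe sets on each. With 235668_at it read 7.36 on the siHLX array and 7.56 on the siCTR array. With 217192_s_at it read 6.63 on the siHLX array and 6.96 on the siCTR array. The mean difference of -0.18 (SD 0.17 between 3 probe sets) was the most negative among the 10 genes. The spread between the PRDM1 probe sets was about as wide as that mean, however. With spike scaling the brightest probe set moved from 0.00 to 0.29, and the scaled mean was not computed. The -0.33 of 217192_s_at is larger in size than that shift, so it stayed below 0. Of those at like level 19.2% lay as far down as 235668_at and 11.7% as far down as 217192_s_at.

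The genes for secreted products differed by at most 0.16 on their brightest probe sets. TIMP1, an inhibitor of matrix metalloproteinases, had a single probe set that read 13.60 on the siHLX array and 13.59 on the siCTR array, with 99.8% of probe sets dimmer on both. SERPINA1 encodes alpha-1-antitrypsin, the inhibitor of neutrophil elastase. Its 211429_s_at read 13.39 on the siHLX array and 13.38 on the siCTR array, and 202833_s_at read 12.84 on the siHLX array and 12.91 on the siCTR array. Both SERPINA1 readings were thus close to their counterparts, with differences of 0.01 and -0.07. The remaining SERPINA1 probe sets read 7.58 on the siHLX array and 7.48 on the siCTR array with 230318_at, and 3.13 on the siHLX array and 3.36 on the siCTR array with 211428_at, which lies below the threshold. The sign of SERPINA1 differed between probe sets, with a mean over all 4 of -0.05 (SD 0.14).

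CLU encodes clusterin, an extracellular chaperone whose Golgi-like staining is typical of ALCL. It read 10.44 on the siHLX array and 10.28 on the siCTR array with 208792_s_at. It read 10.39 on the siHLX array and 10.26 on the siCTR array with 208791_at. It read 5.76 on the siHLX array and 5.57 on the siCTR array with 222043_at. The 3 probe sets above the threshold were all higher on the siHLX array, by a mean of 0.16 (SD 0.03), and 9.66%, 14.0% and 31.6% of probe sets at these levels differed at least as positively. The fourth, 1559228_at, was below the threshold with 3.84 on the siHLX array and 3.94 on the siCTR array. Of the genes read above the threshold by more than 1 probe set, CLU and NPM1 had all such readings higher on the siHLX array, and ALK and CD274 had all lower, before spike scaling.

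**Figure D3:**
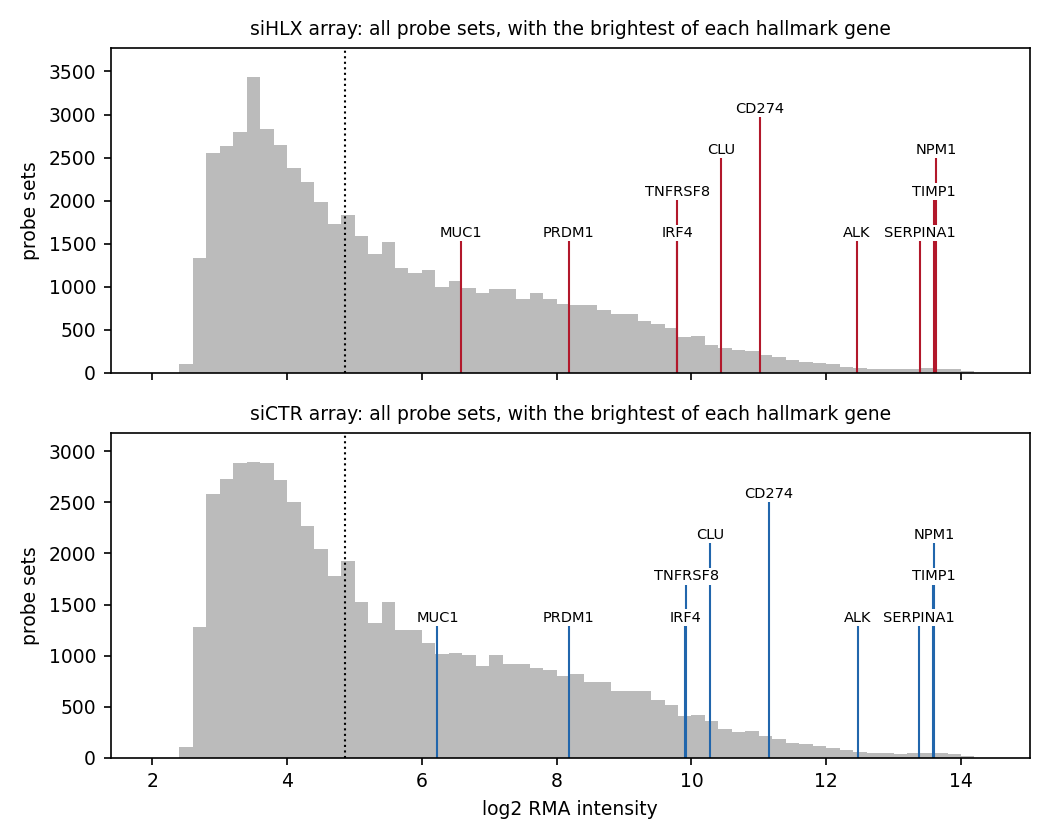
Number of probe sets (y axis) by log2 RMA intensity (x axis) on the siHLX array above and the siCTR array below, with a line at the brightest probe set of each hallmark gene, whose height carries no value, and a dotted line at the level threshold of 4.865. The brightest probe sets of ALK, SERPINA1, TIMP1 and NPM1 lie at the far right of both arrays, and those of MUC1 and PRDM1 lie lowest.

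On their brightest probe sets, 9 of the 10 genes also passed the upper quartile over both arrays, 7.095, the exception being MUC1. That quartile is one of probe sets, and the share of all genes passing it was not counted, so 9 of 10 does not set these genes apart. Oligonucleotides differ in how strongly they bind, so these positions place readings among readings and do not rank the transcripts. Bright probe sets give the narrowest comparison. Of the hallmark probe sets 11, from 6 genes, had a mean of at least 10, and their differences ran from -0.14 to 0.16 with a median size of 0.09. The 2947 probe sets of that brightness on the whole array had a median size of 0.07 and an SD of 0.116, 0 of them reached 2-fold, and 86.4% lay within 0.16 in either direction. The central 95% of them ran from -0.24 to 0.23, and 0 of the 11 hallmark probe sets lay outside. Between probe sets of the same gene, the difference had a pooled SD of 0.268 over 5869 genes, and of 0.098 over the 460 genes with bright probe sets. Of the 21 hallmark probe sets above the threshold 18 differed by no more than 0.268, and of the 11 bright ones 6 by no more than 0.098. The shares of all probe sets within these SDs were not counted. Their median sizes, 0.16 above the threshold and 0.07 for bright ones, were also below these SDs, so both counts do not set the hallmark probe sets apart. The wider SD pools all levels above the threshold. Like-level SDs of the hallmark probe sets there ran from 0.053 for 200063_s_at of NPM1 to 0.403 for 222043_at of CLU. Bright probe sets thus fall within the wider SD readily. Both SDs compare different probe sets and are not an error of repeated readings.

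For each wider group of genes, a gene was represented by its brightest probe set and counted when that was above the threshold. Of all 12135 such genes 47.4% had higher and 50.1% lower siHLX values, and their median was -0.01. Of the 10 hallmark genes 5 read higher, 4 lower and 1 equal. The groups below were read against that background.

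The signal transducers below NPM1-ALK, from adaptors such as GRB2 to kinases and STAT factors, were split. Of 26 genes listed 22 were above the threshold, 10 of them with higher and 12 with lower siHLX values, and their median was -0.03, or 0.26 with spike scaling and 0.04 without probe sets ending in _s_at or _x_at. The highest were STAT5B, a transcription factor, with 9.65 on the siHLX array and 9.42 on the siCTR array, and IRS1, an insulin receptor adaptor that binds ALK, with 9.17 on the siHLX array and 8.95 on the siCTR array. The lowest were MTOR, the growth kinase, with 6.72 on the siHLX array and 7.12 on the siCTR array, and AKT1, the kinase below PI3K, with 8.25 on the siHLX array and 8.58 on the siCTR array. Of those at like level 6.12% lay as far down as MTOR and 4.17% as far down as AKT1, and 8.68% as far up as IRS1. IRS1 had 2 other probe sets above the threshold, at -0.07 and -0.04, so its reading did not repeat. STAT5B, with 6.33% as far up at like level, had 4 other probe sets above the threshold, at -0.01, 0.07, 0.39 and 0.43. Among other probe sets above the threshold in this group, PLCG1 reached -0.54 and JAK3 reached 0.90.

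Known target genes of NPM1-ALK and STAT3 in ALCL lay on both sides of 0. Of 25 listed 24 were above the threshold, 10 of them higher and 14 lower, with a median of -0.02, or 0.27 with spike scaling. ICOS, a T-cell costimulator, read 7.81 on the siHLX array and 7.63 on the siCTR array. MMP9, a gelatinase, read 5.37 on the siHLX array and 4.69 on the siCTR array, a difference of 0.68 close to the threshold, reached by 7.85% of probe sets at that level. DNMT1, the maintenance DNA methyltransferase, read 10.91 on the siHLX array and 11.12 on the siCTR array, a difference of -0.21 that 3.27% of probe sets at that level reached. TGFB1, a cytokine, had the same difference on its brightest probe set and 0.65 on the other one above the threshold. MMP9 aside, differences of this group on the brightest probe sets were thus between -0.21 and 0.18. Other probe sets above the threshold differed more widely, as in VEGFA at -0.77 and 0.09 and in TGFB1 at 0.65.

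The other ALK fusion partners, which drive the kinase in rearrangements without NPM1, had no direction that held between readings. Of 15 listed 13 were above the threshold, 9 of them higher, 3 lower and 1 equal, with a median of 0.09, or 0.38 with spike scaling, but 0.01 with the mean of all probe sets and -0.01 without probe sets ending in _s_at or _x_at. CLTC, the clathrin heavy chain, read 12.50 on the siHLX array and 12.33 on the siCTR array, a difference that 1.71% of probe sets at that level reached. MYH9, a non-muscle myosin, read 7.65 on the siHLX array and 7.39 on the siCTR array. MSN, which encodes moesin, read 10.59 on the siHLX array and 10.67 on the siCTR array. No group difference was tested. The brightest probe sets ranged from -0.08 to 0.26, while other probe sets above the threshold differed more widely, as in TPM4 at -0.80 and 0.47 and in RNF213 at -0.62 and 0.87.

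Around NPM1, the nucleophosmin family and nucleolar partners had 12 of 15 genes above the threshold, 4 of them higher and 8 lower, with a median of -0.05, or 0.24 with spike scaling, whereas NPM1 itself lay at 0.03 on its brightest probe set. NPM3, the chromatin chaperone of the same family, read 9.50 on the siHLX array and 9.35 on the siCTR array. NPM2, its oocyte relative, read 5.31 on the siHLX array and 5.47 on the siCTR array. CDKN2A, whose ARF product binds nucleophosmin, read 9.49 on the siHLX array and 9.31 on the siCTR array, and NOP58, a core protein of small nucleolar ribonucleoproteins, read 11.99 on the siHLX array and 12.10 on the siCTR array. On the brightest probe sets all 12 differences lay between -0.16 and 0.18. Other probe sets above the threshold differed more widely, as in UBTF at -0.45 and XPO1 at 0.77.

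**Figure D4:**
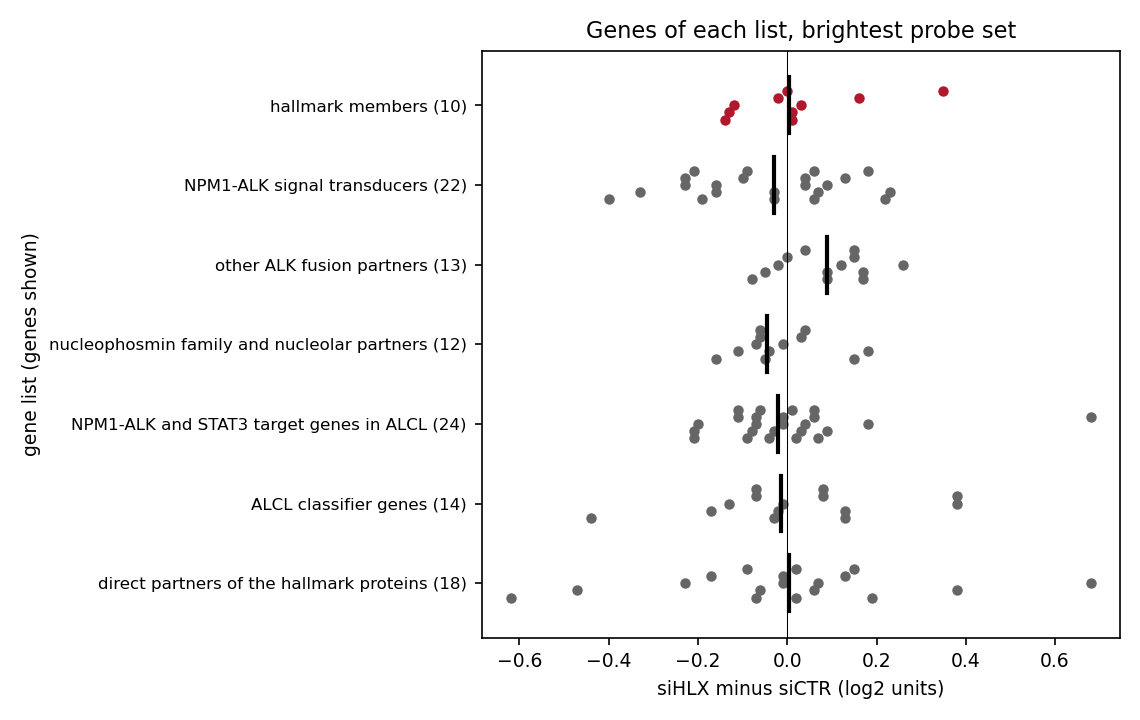
Values on the siHLX array minus those on the siCTR array (x axis, log2 units) of each gene above the level threshold, by its brightest probe set, in 7 gene groups (y axis, number of genes in brackets), with a black bar at the median and the hallmark genes in red. All medians lie between -0.05 and 0.09, and 0 genes of these groups reach 2-fold.

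Genes that have been used to classify ALCL among T-cell lymphomas had 14 of 16 genes above the threshold, 6 of them higher and 8 lower, with a median of -0.02, or 0.27 with spike scaling. TMOD1, an actin-capping protein, read 5.65 on the siHLX array and 5.27 on the siCTR array. Its other probe set above the threshold differed by -0.08. CD70, a TNF family ligand, read 5.16 on the siHLX array and 4.78 on the siCTR array. TNFRSF9, the receptor 4-1BB, read 5.65 on the siHLX array and 6.09 on the siCTR array, a difference of -0.44 with -0.32 on its other probe set, and 11.3% of probe sets at that level differed at least as negatively. IL31RA, a cytokine receptor, read 7.65 on the siHLX array and 7.82 on the siCTR array. It gave -0.17 on both probe sets above the threshold. A dimmer probe set below the threshold read 4.83 on the siHLX array and 4.20 on the siCTR array, a difference of 0.63. TMOD1 and CD70 lay near the level threshold.

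Direct partners of the hallmark proteins were evenly split, with 18 of 26 above the threshold, 9 of them higher and 9 lower, and a median of 0.01, or 0.29 with spike scaling. TNFSF8, the CD30 ligand, read 4.65 on the siHLX array and 5.12 on the siCTR array, just above the threshold on average. BACH2, a repressor that acts against PRDM1, read 4.65 on the siHLX array and 5.27 on the siCTR array. CD80, which can bind PD-L1, read 5.12 on the siHLX array and 4.74 on the siCTR array. All of these examples are dim, and of probe sets at their levels 9.94% differed at least as negatively as BACH2 and 21.1% at least as positively as CD80.

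The cell line label was set beside marker genes. ALK, TNFRSF8 and MUC1 were above the threshold, as described, MUC1 on 1 of its 3 probe sets. Of 14 T-cell markers 7 were above it, with CD3D the brightest at 10.98 on the siHLX array and 10.73 on the siCTR array, while CD2, CD3G, CD8A, CD28, ZAP70, LCK and TRAT1 were below it on both arrays' mean. The summed linear signal of the T-cell markers was 2504 on the siHLX array and 2220.4 on the siCTR array, and CD3D carried this rise, since the other 13 summed to 485 on the siHLX array and 522 on the siCTR array. The median difference of the 7 was -0.19, which was 0.10 with spike scaling. Of 7 B-cell markers 3 were above the threshold, with sums of 268 on the siHLX array and 266 on the siCTR array and a median of 0.21, or 0.50 with spike scaling. Of 8 myeloid markers 2 were above it, with sums of 189.9 on the siHLX array and 195 on the siCTR array and a median of -0.31, which rests on CSF1R at 0.44 and ITGAM at -1.06 and was -0.021 with spike scaling. Of 10 epithelial and stromal markers 4 were above it, with sums of 490.4 on the siHLX array and 517 on the siCTR array and a median of -0.16, or 0.13 with spike scaling. Of the markers of the 3 other cell types 9 of 25 were thus above the threshold. Of all 19775 genes 12135 were above it by the same rule, a larger share than in the T-cell list or in any of these 3. The brightest were CD79A, a B-cell receptor chain, with 6.81 on the siHLX array and 6.57 on the siCTR array, KRT18, a keratin, with 7.04 on the siHLX array and 7.20 on the siCTR array, and COL1A1, a collagen chain, with 7.43 on the siHLX array and 7.62 on the siCTR array. All 3 read brighter than MUC1, which had 6.58 on the siHLX array and 6.23 on the siCTR array. Being above the threshold thus does not set MUC1 apart from markers of other cell types. The part of any marker list in the hallmark readings was not tested.

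**Figure D5:**
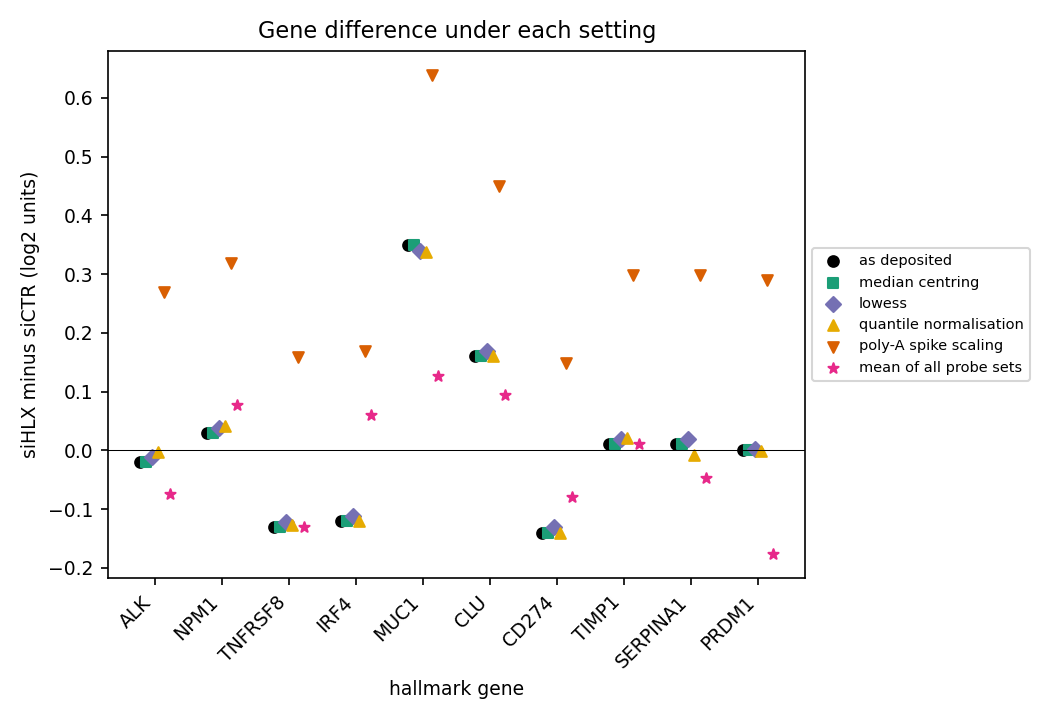
Values on the siHLX array minus those on the siCTR array (y axis, log2 units) of each hallmark gene (x axis) as deposited and under 5 other settings, 1 symbol each. Symbols for the 4 settings other than spike scaling and the mean of all probe sets nearly coincide for each gene, spike scaling raises every gene by 0.29, and the mean of all probe sets shows the largest other shifts at IRF4, MUC1 and PRDM1.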

How the data were processed

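RNA of SU-DHL-1 cells had been labelled with biotin and hybridised to Affymetrix HG-U133 Plus 2.0 arrays, 1 with siHLX and 1 with siCTR, grouped by the treatment in the labels. The authors deposited 1 log2 intensity for each probe set, rounded to 2 decimals. The methods name RMA background correction and quantile normalisation, done with limma and affy, and the submitters' processing notes name the same tools. For these tools, versions are not given in the sources used here. Because quantile normalisation makes the arrays equally bright, a shift common to most transcripts is hidden.

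Of 54675 probe sets 62 were controls. Of the others 41091 were paired with 1 gene, 1801 with several, from which no gene was named, and 11721 were unnamed here. Symbols were checked through the Entrez identifier against RefSeq (41037 found, 0 changed). The difference was siHLX minus siCTR. Named were all 10 hallmark genes, HLX, and of each other list the 2 genes with the highest and the 2 with the lowest difference above the threshold, of which examples are given. Dim T-cell markers and second probe sets were added for context. The members and lists were chosen with earlier results of these data known. With 2 arrays, no likeness of pattern between genes could be measured. The number of arrays limits the precision.

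Alternatives were median centring, a repeated quantile normalisation, lowess with a fraction of 0.2, scaling to the poly-A spikes, a gene's mean over its probe sets, exclusion of probe sets that end in _s_at or _x_at, no threshold, the 75th percentile as threshold, and 1.5-fold. Python 3.11.15, numpy 2.4.6, pandas 2.3.3, statsmodels 0.14.6 and matplotlib 3.10.9 were used, and the steps were tested on simulated data. CLU has no start-site window among those used here.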

Additional observations from a re-analysis of the deposited data

How the results depend on the processing

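Of 155 values recomputed under 10 other settings, 128 moved by less than the pooled SD between probe sets (counts by less than 1.5 times). Among the 132 not scaled to the poly-A spikes 127 did. That SD, 0.268, was at least as large as 18 of the 21 hallmark differences above the threshold. A value could thus turn sign and still count as unmoved, as IRF4 did from -0.12 to 0.06 with the mean of all probe sets. Median centring and a repeated quantile normalisation change little on arrays already normalised. The tally therefore says little about how well small differences hold. Spike scaling adds 0.29 to every difference by construction, which is more than 0.268. It gave -0.16 for HLX and 0.30 for the median of the hallmark probe sets. The list medians became 0.26 for the signal transducers, 0.38 for the other fusion partners, 0.24 for the nucleolar partners, 0.27 for the targets and for the classifier genes, and 0.29 for the direct partners. Those of the markers became 0.10 for T cells, 0.50 for B cells, -0.021 for myeloid cells and 0.13 for epithelial and stromal cells. Without probe sets ending in _s_at or _x_at 7 hallmark genes were measured above the threshold in place of 10, and medians turned sign to -0.01 for the hallmark probe sets, the other fusion partners and the direct partners and to 0.04 for the signal transducers. A 1.5-fold limit counted 2 hallmark probe sets, both of MUC1, in place of 0. The T-cell marker median was 0.11 with the mean of all probe sets and 0.13 at the 75th percentile, and the myeloid one was 0.44 with the mean of all probe sets and 0.11 without a threshold. For these marker medians of few genes the cause was not tested.

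No paired analysis was possible because each siRNA had 1 array, and for the same reason leaving out a replicate was not run. The difference between cultures was not measured, dim probe sets vary most, and positions of oligonucleotides along the fusion were not analysed here.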

Other observations

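Some targets of NPM1-ALK and STAT3 were also among the brightest readings of both arrays. They were chosen for their brightness after their values were seen. CEBPB, a transcription factor induced by the fusion kinase, read 13.05 on the siHLX array and 13.06 on the siCTR array. GZMB, the cytotoxic protease granzyme B that is typical of ALCL, read 13.41 on the siHLX array and 13.39 on the siCTR array, and PRF1, the pore-forming perforin, read 12.75 on the siHLX array and 12.72 on the siCTR array. BATF3, an AP1 factor, read 12.41 on the siHLX array and 12.48 on the siCTR array. IL2RA, which encodes CD25, read 12.26 on the siHLX array and 12.20 on the siCTR array, with a second probe set at -0.17. On the brightest probe sets, all of these differences lay within the central 95% of bright probe sets.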
